A study of Rattus norvegicus with 17 samples.

Results

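The genes described are goblet cell products and regulators of goblet cell fate in rat colon mucosa: Clca1 (formerly Clca3), Fcgbp, Zg16, Agr2, Spink4 and Retnlb as products, and Spdef, Atoh1 and Klf4 as regulators. Members were the probes whose gene name on the array, without its prediction suffix, was one of these 9 genes. By name, 4 of the 9 genes were found among 41012 probes, namely Clca1, Zg16, Agr2 and Klf4. Spdef was added because an uncharacterised locus on the array carries its gene ID in RefSeq. The names Fcgbp, Spink4, Retnlb and Atoh1 matched no probe and are not analysed here. A probe for Fcgbpl1, an Fcgbp-like gene and the next protein-coding gene to Fcgbp in RefSeq, is described beside the members and is not counted among them. The probes of Spdef and Fcgbpl1 were added after the data were seen. Each of these 6 genes had 1 probe, which lay well above background on all 17 arrays and was saturated on 0 of them. Both were judged in Cy5 only, the dye of the single rats. They are 6 of the 27101 probes tested.

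The tissue was scraped colon mucosa of 17 female rats with HLA-B27/β2-microglobulin transgenes of human origin, bred on inbred Fisher 344 and prone to colitis. All were 8 to 10 weeks old at the start, were housed singly and ate a purified Western-type diet. The high calcium group of 8 rats received 120 mmol calcium per kg of diet, with the added calcium replacing glucose, and the low calcium group of 9 rats received 30 mmol per kg. Both groups carry the transgenes, no rats without them were analysed here, and the promoters that drive the transgenes are not given in the sources used here. The comparison asks what added calcium in the diet does to that colitis. RNA of each rat was labelled with Cy5 and hybridised to its own array against a Cy3-labelled pool of all animals, so each value is the log2 ratio of 1 rat to that pool.

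Goblet cells are secretory cells of the intestinal lining that fill with mucin granules and build the mucus layer between bacteria and epithelium. Besides the mucins they secrete proteins that shape or arm that layer: Clca1 is a metalloprotease of mucus, Zg16 a lectin that binds Gram-positive bacteria, and Fcgbp a large mucin-bound protein known from human and mouse mucus. Agr2 is a protein disulphide isomerase of the endoplasmic reticulum needed to make mucin. The secretory lineage starts with Atoh1, and Spdef and Klf4 are transcription factors needed for goblet cell maturation in the mouse.

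The probes lie in the rat build rn3, per the file headers, at chr2:243044927-243044986 for Clca1, chr5:73452107-73452166 for Klf4, chr20:5928145-5928204 for Spdef and chr1:83342633-83342692 for Fcgbpl1, each covering 60 bases. The Zg16 probe spans 218 bases at chr1:186452143-186452360 and the Agr2 probe 1353 bases at chr6:54712688-54714040. Exon positions in that build are not given in the sources used here. Mean Cy5 spot signals were 8016 to 30929 for Clca1 and 8474 to 22755 for Fcgbpl1, both in raw intensity units. Those of Agr2 were 62595 to 128091 and those of Zg16 56398 to 132031, all far above the array medians of 146.8 to 180.8. Signals of different probes do not rank the genes, because probes differ in how well they bind.

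Promoters are shown for Clca1 and Fcgbpl1, the pair among the 6 genes with the highest Pearson's r over rats. That of Agr2, which ran opposite to Fcgbpl1, is shown too. They are the 250 bases before the transcription start in RefSeq's GRCr8 assembly, 5′ to 3′ on the gene's strand, at chr2:236624715-236624964 (minus strand) for Clca1, chr1:92552113-92552362 (plus strand) for Fcgbpl1 and chr6:58435658-58435907 (plus strand) for Agr2. Capitals mark matches, on either strand, to 5 short motifs: TGTTTAC of forkhead factors such as FOXA, CACCC of Kruppel-like factors, CAGCTG of the E-box type, CCGGAT of SPDEF and TTTATG of caudal factors.
Clca1: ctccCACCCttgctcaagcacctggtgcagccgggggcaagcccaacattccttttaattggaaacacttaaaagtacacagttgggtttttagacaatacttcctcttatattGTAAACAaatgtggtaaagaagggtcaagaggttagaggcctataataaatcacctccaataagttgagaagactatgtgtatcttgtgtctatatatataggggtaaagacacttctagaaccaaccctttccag
Fcgbpl1: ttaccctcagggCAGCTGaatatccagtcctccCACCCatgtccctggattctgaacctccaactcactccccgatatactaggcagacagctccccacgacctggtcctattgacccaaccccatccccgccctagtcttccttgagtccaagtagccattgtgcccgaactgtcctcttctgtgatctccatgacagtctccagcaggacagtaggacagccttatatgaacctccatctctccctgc
Agr2: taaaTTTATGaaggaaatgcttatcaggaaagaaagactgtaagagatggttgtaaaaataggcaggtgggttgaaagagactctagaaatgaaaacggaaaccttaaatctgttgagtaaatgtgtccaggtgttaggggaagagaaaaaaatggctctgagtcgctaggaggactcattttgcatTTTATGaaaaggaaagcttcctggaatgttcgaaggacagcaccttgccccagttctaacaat
The Clca1 promoter held 1 forkhead match, 136 bases before the start, and 1 CACCC match. The Fcgbpl1 promoter held 1 CACCC and 1 CAGCTG match, and the Agr2 promoter 2 TTTATG matches. None of the marked matches overlapped another. The 250-base windows of Spdef and Klf4 held 0 matches to these motifs. Among 33469 rat promoters of the same length, 3.21% held TGTTTAC, 49.2% CACCC, 12% CAGCTG, 5.51% CCGGAT and 11.4% TTTATG. A match describes letters only.

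Per array, 60.6% to 72.5% of probes had a Cy5 signal well above background. Spots with a bright local background numbered 0 to 37 per array, most of them on low calcium rats 11 and 16. Of tested markers, 11 of 11 general epithelial and 7 of 8 smooth muscle markers lay above background on all 17 arrays. So did 23565 of the 27101 tested probes, all of which had passed a filter of 8 or more arrays above background. These counts cannot check the labelled tissue, because the markers had passed that filter too. The arrays were scanned on 5 slides, of which slides 1 to 4 held 2 high and 2 low calcium rats each and slide 5 held low calcium rat 1 alone. High calcium rat 3, on slide 1, stood apart: with all rats, 0 of 27101 probes passed limma's adjusted p of 0.05, and without rat 3, 273 did. The count was 87 with array weights in place of equal weights, 73 without low calcium rat 16, and 179 without their shared slide.

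None of the 4 members found by name, nor Spdef, passed limma's adjusted p over all probes, against a background of 0% of tested probes. At an unadjusted p under 0.05, 1 of the 5 (Clca1) was higher at high calcium, against a background of 9.6% of probes in either direction, 4.43% higher and 5.17% lower. Without high calcium rat 9 or rat 18, Clca1 no longer met that threshold and 0 of the 4 members found by name did; without rat 3, 7 or 15, 3 of the 4 did. Means were higher at high calcium for 4 of the 5, against 54.2% of all tested probes, and the median difference of the 5 was 0.20 against 0.01 over all probes. The diets overlapped for all 6 genes, as they did for all but 0.0295% of tested probes. Differences are given as high minus low calcium in log2 units with limma's standard error (8 and 9 rats).

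Clca1 varied most. Its log2 ratio to the pool was lowest at -0.83, had a median of 0.12 and reached 0.71 in high calcium rats, against -1.09, -0.22 and 0.02 in low calcium rats. In 4 of the 8 high calcium rats it lay above every low calcium rat, whereas high calcium rats 3 and 14 lay at -0.83 and -0.44, below the low calcium median. The mean was 0.05 ± 0.51 in high calcium rats and -0.41 ± 0.39 in low calcium rats (SD, n = 8 and 9). The difference was 0.47 ± 0.19, a ratio of 1.38 (95% interval 1.05 to 1.81), with an unadjusted p of 0.022 and an adjusted p of 0.412 by limma. An exact two-sided permutation test over all 24310 assignments of rats to diets gave p = 0.04998.

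Fcgbpl1 had the largest difference of the 6 genes. High calcium rats ran from -0.54 through a median of 0.27 to 0.68, and low calcium rats from -0.85 through -0.32 to -0.08. All 9 low calcium rats were below the pool, and 6 of the 8 high calcium rats lay above every low calcium rat. The exceptions were again high calcium rats 3, at -0.54, and 14, at -0.20. The difference was 0.53 ± 0.14, a ratio of 1.44 (95% interval 1.18 to 1.76), with an adjusted p of 0.150 by limma and an exact permutation p of 0.0056. Without rat 3 it was 0.63 ± 0.12 and passed, with an adjusted p of 0.015 by limma. Rat 3 was the lowest high calcium rat, so leaving it out had to raise the difference. In that setting 273 of 27101 probes passed. Whether this probe also reads Fcgbp itself was not tested, because the probe's sequence was not used here.

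Zg16 was higher on average at high calcium, within wide overlap. Its log2 ratios were -0.10 at the lowest, 0.40 at the median and 0.89 at the highest in high calcium rats, against -0.33, 0.18 and 0.57 in low calcium rats. Only high calcium rats 9 and 18 lay above every low calcium rat. The difference was 0.26 ± 0.14 (95% interval -0.03 to 0.54), with an adjusted p of 0.572 by limma and an exact permutation p of 0.119.

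Agr2 was the 1 gene of the 6 with a lower mean at high calcium. Its values ran from -0.45 through -0.07 to 0.24 in high calcium rats and from -0.43 through -0.01 to 0.31 in low calcium rats, and these ranges nearly coincide. The difference was -0.12 ± 0.11 (95% interval -0.35 to 0.11), with an adjusted p of 0.782 by limma and an exact permutation p of 0.344.

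Among the regulators, Spdef did not differ beyond its spread. It ran from -0.09 through 0.01 to 0.42 in high calcium rats and from -0.33 through -0.08 to 0.34 in low calcium rats. The difference was 0.06 ± 0.09 (95% interval -0.12 to 0.24), with an adjusted p of 0.881 by limma and an exact permutation p of 0.554. Rat 9 was the high calcium rat at 0.42, and without it the difference was 0.0039.

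Klf4 had a higher mean at high calcium, as Clca1, Fcgbpl1 and Zg16 did. Its values ran from -0.22 through 0.23 to 0.61 in high calcium rats and from -0.40 through 0.02 to 0.29 in low calcium rats. High calcium rats 9, 13 and 18 lay above every low calcium rat, and high calcium rat 3 was the lowest of its group. The difference was 0.20 ± 0.11 (95% interval -0.02 to 0.42), with an adjusted p of 0.580 by limma and an exact permutation p of 0.120.

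**Figure D1:**
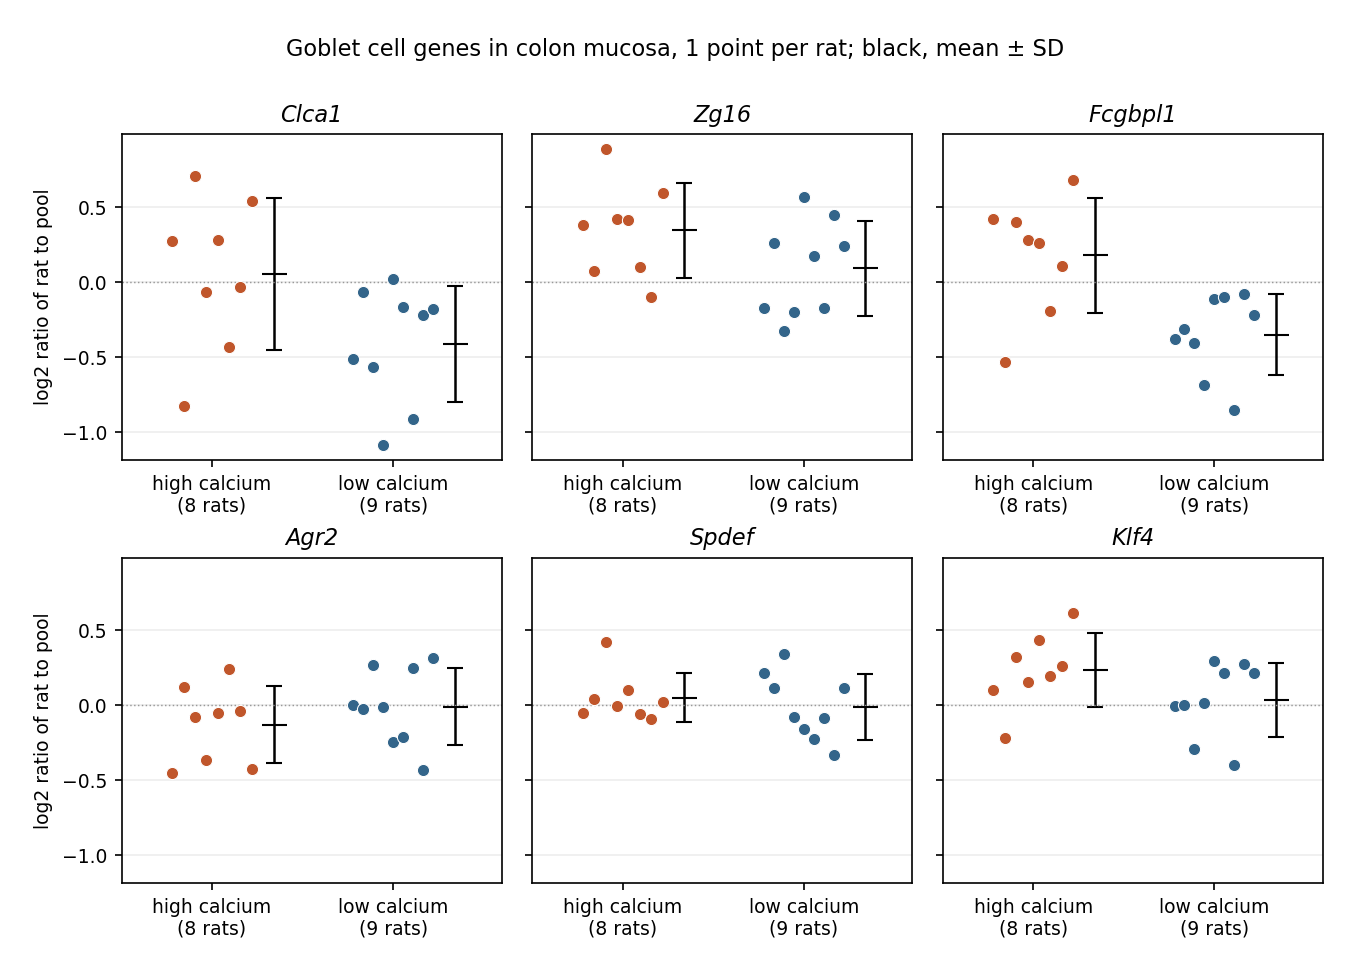
Log2 ratio of each rat to the pool (vertical axis) for 6 genes, with 8 high calcium rats left of 9 low calcium rats; black marks are means with SD. The diets overlap in every panel, Fcgbpl1 shows the widest gap between means, and the lowest high calcium rat for Clca1, Fcgbpl1 and Klf4 is rat 3.

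The differences were uneven between slides. Within slides 1 to 4, each with 2 rats per diet, Clca1 differed by -0.15, 1.15, -0.01 and 0.82 between high and low calcium. Fcgbpl1 differed by 0.21, 0.89, 0.14 and 0.86 on the same slides, and was the 1 gene of the 6 that was higher at high calcium on all 4. Zg16 owed most of its difference to slide 2, with -0.02, 0.91, -0.11 and 0.11, while Klf4 gave -0.17, 0.38, 0.06 and 0.50. Agr2 gave -0.31, -0.35, 0.32 and -0.14, and Spdef -0.12, 0.08, 0.21 and 0.17. With slide as a block, the difference was 0.45 ± 0.21 for Clca1 and 0.53 ± 0.16 for Fcgbpl1, with adjusted p of 0.560 and 0.301 by limma.

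**Figure D2:**
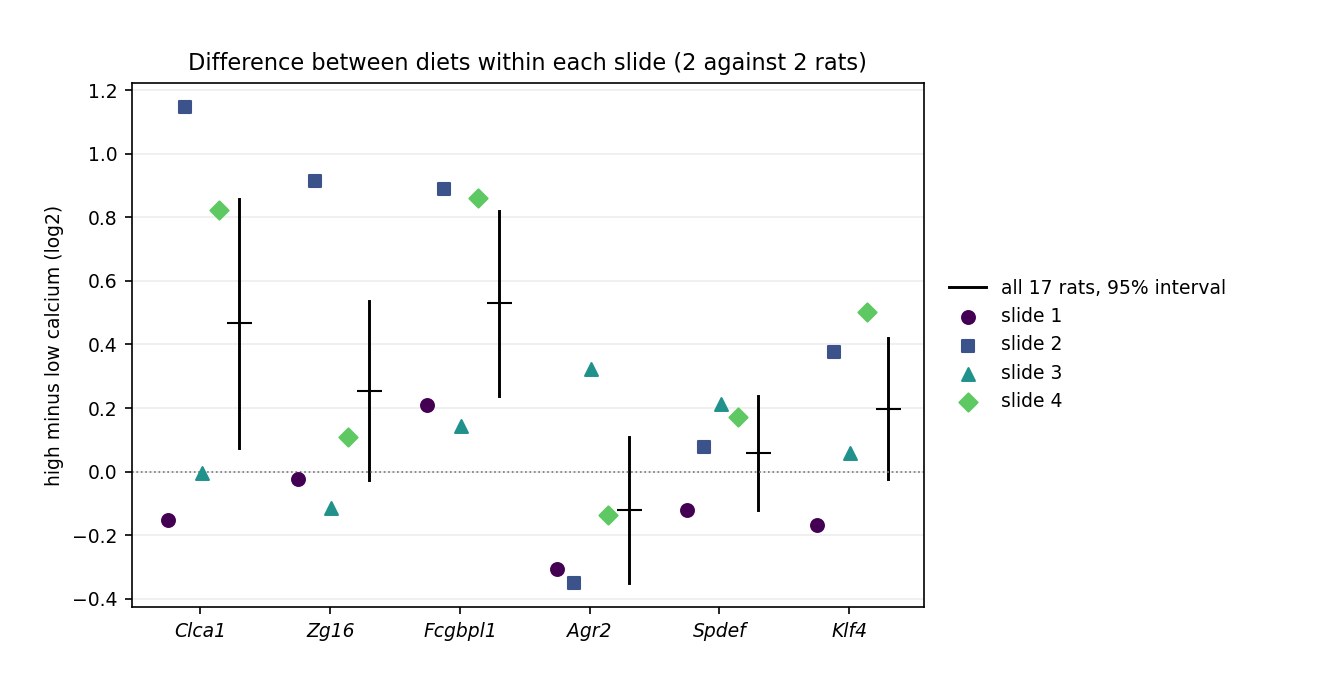
High minus low calcium (log2, vertical axis) for each gene within each of 4 slides (symbols, 2 against 2 rats) and over all 17 rats with its 95% interval (black). Slides 2 and 4 lie highest for Clca1, Fcgbpl1 and Klf4, and Fcgbpl1 is above 0 on every slide.

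Rats on the same diet differed widely in Clca1, Fcgbpl1 and Zg16, and less in Agr2, Klf4 and Spdef. The residual SD within diets, in log2 units, was 0.45 for Clca1, at or above that of 99.5% of tested probes. It was 0.33 for Fcgbpl1 (98.4% of probes), 0.32 for Zg16 (98.2%), 0.26 for Agr2 (96.1%), 0.25 for Klf4 (95.5%) and 0.20 for Spdef (89.8%). These shares are over probes of every signal level, and the effect of signal level on the SD was not tested. From the lowest to the highest of the 17 rats, Clca1 spanned a ratio of 3.47, Fcgbpl1 2.89 and Zg16 2.32. The same pool lay in the Cy3 channel of every array, which gives the spread of a repeated hybridisation; differences between rats in dissection, RNA isolation and labelling are not part of it. For Clca1 the SD of log2 signal was 0.46 among rats and 0.052 for the repeated pool, a ratio of 8.98. The ratio was 9.00 for Fcgbpl1, 3.65 for Spdef, 3.39 for Zg16, 2.46 for Klf4 and 1.83 for Agr2. Over all tested probes the median SD was 0.158 for rats and 0.087 for the pool. The pool's SD lay above that median for Agr2 (0.116), Zg16 (0.098) and Klf4 (0.091). For Agr2 the SD among rats was 0.214, so much of its spread was also seen in the repeated pool.

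**Figure D3:**
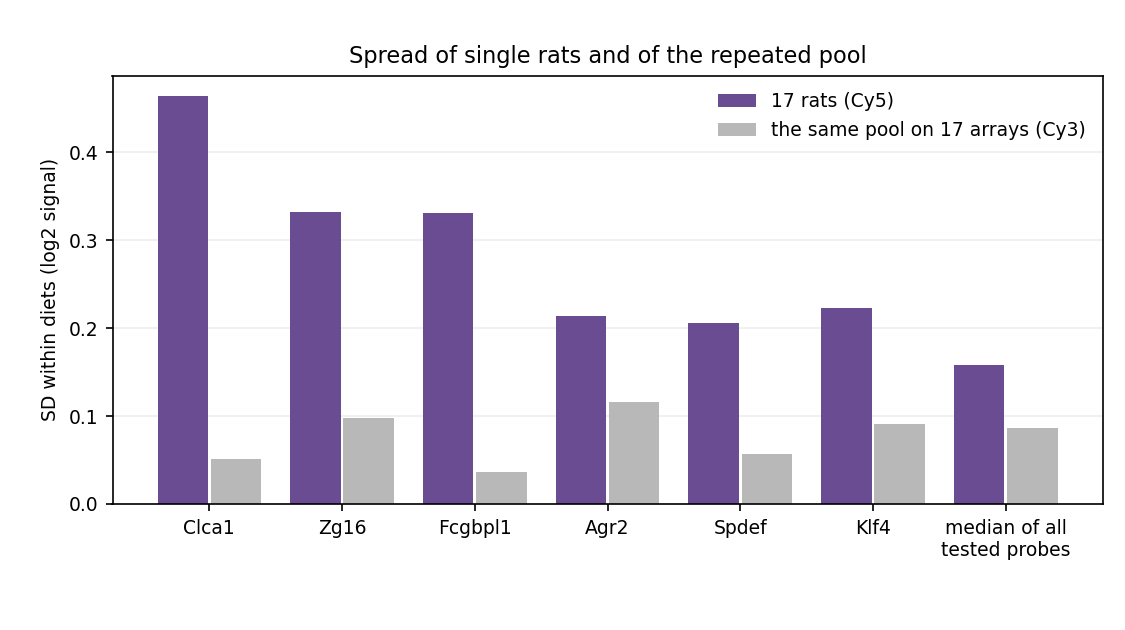
SD of log2 signal within diets (vertical axis, bars from 0) among the 17 rats in Cy5 and for the same pool on 17 arrays in Cy3, for 6 genes and as the median of all tested probes. The bar of the rats exceeds that of the pool for each gene, by 8.98 times for Clca1 and 1.83 times for Agr2.

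The genes fell into those that varied together and those that did not. After each diet's mean was taken out, 8 of the 15 pairs of the 6 genes were correlated over the 17 rats at an adjusted permutation p under 0.05 by Pearson's r, and 7 by Spearman's rho, with 100000 resamples within diets. Clca1, Zg16, Fcgbpl1 and Klf4 made up 6 of those pairs. The share of all gene pairs that would pass was not computed, so these counts cannot set the 6 genes apart from other genes. By rho, Clca1 and Zg16 were closest, at 0.81. By r, Clca1 and Fcgbpl1 were closest, at r = 0.92 and rho = 0.79. Their permutation p was 1e-05 for r, the smallest these resamples can give, and 0.00065 for rho (adjusted 0.00015 and 0.0046). The r was 0.87 without rats 3 and 6, the farthest from the median of Clca1, and it was 0.93 within high and 0.90 within low calcium rats. Removing slide means as well left it at 0.92.

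Zg16 followed Clca1 at r = 0.80 and rho = 0.81 (permutation p = 0.00029 and 0.00036, adjusted 0.00145 and 0.0046), and r was 0.82 without rats 3 and 6. Zg16 and Fcgbpl1 gave r = 0.71 and rho = 0.77 (adjusted permutation p = 0.0061 and 0.0046), and r was 0.79 without rats 5 and 17. Clca1, Zg16 and Fcgbpl1 ranked the rats much alike. Klf4 followed Fcgbpl1 at r = 0.79 and rho = 0.70 (adjusted permutation p = 0.00145 and 0.00825), Clca1 at 0.72 and 0.73 (adjusted 0.0058 and 0.0064) and Zg16 at 0.66 and 0.66 (adjusted 0.012 and 0.013). Leaving out the farthest 2 rats gave r of 0.58, 0.70 and 0.68 for these Klf4 pairs.

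Agr2 ran the other way. With Fcgbpl1 it gave r = -0.70 and rho = -0.74 (adjusted permutation p = 0.0061 and 0.0063), and r was -0.67 without rats 3 and 11. With Zg16 it gave r = -0.57 and rho = -0.52, of which r passed and rho did not (adjusted permutation p = 0.043 and 0.079). Its r of -0.52 with Clca1 and -0.53 with Klf4 did not pass (adjusted permutation p = 0.063 and 0.060). Spdef gave r = 0.15 with Clca1, -0.05 with Zg16, -0.02 with Fcgbpl1 and -0.24 with Klf4, and adjusted permutation p-values of 0.46 to 0.94. Its r with Zg16 was 0.78 within high and -0.59 within low calcium rats, and the difference between diets was not tested. Its pair with Agr2, its closest, gave r = 0.47 (adjusted permutation p = 0.089).

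**Figure D4:**
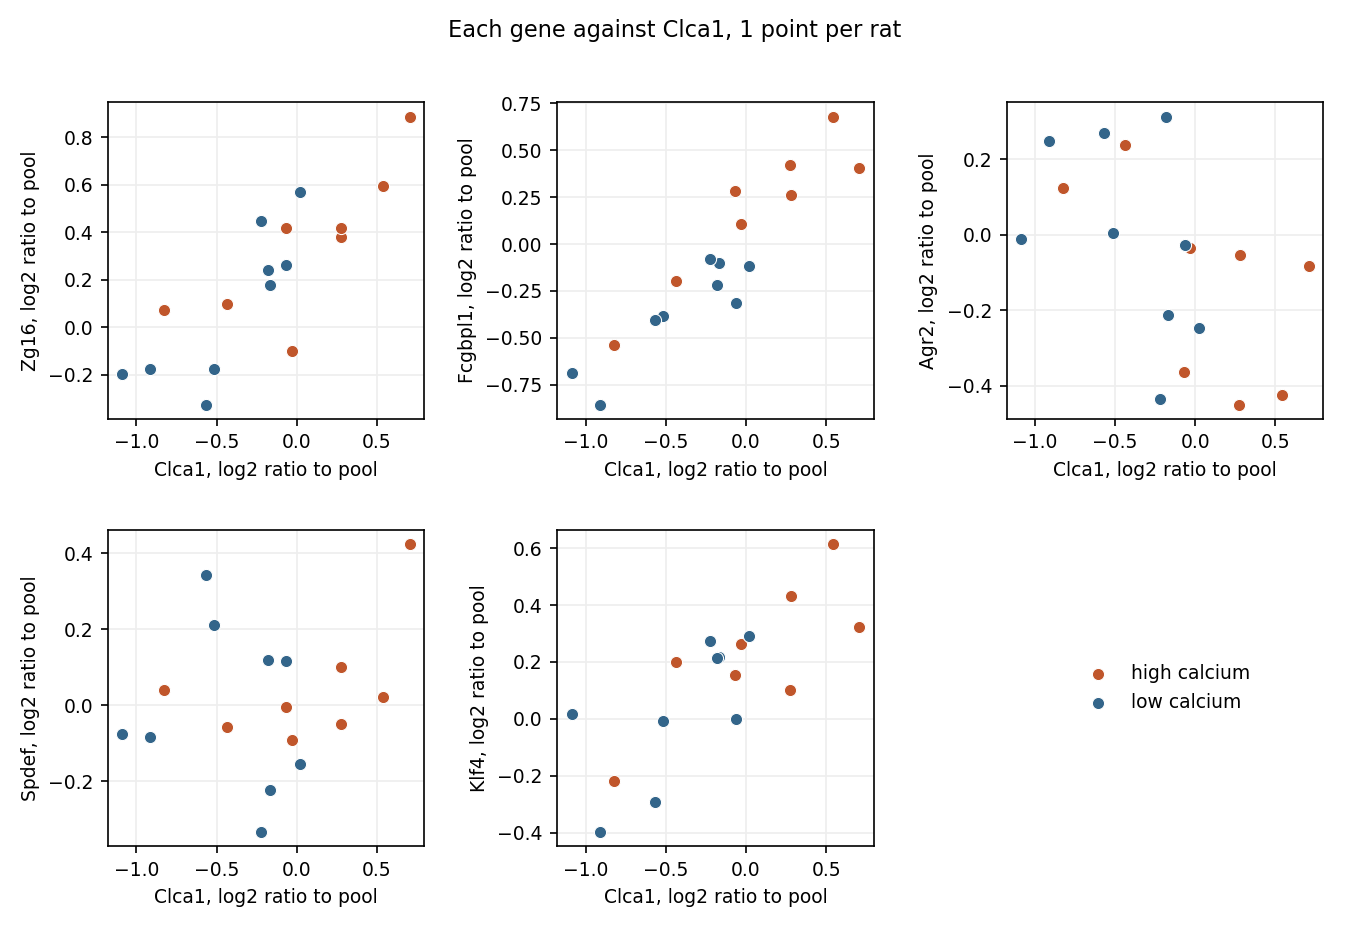
Log2 ratio to the pool of each of 5 genes (vertical axes) against that of Clca1 (horizontal axes), 1 point per rat, high and low calcium in separate colours. Fcgbpl1, Zg16 and Klf4 climb with Clca1, Agr2 slopes down and Spdef shows little slope.

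Across all genes with a RefSeq symbol, the 2 most like each gene were found over the 17 rats by r after diet means were taken out, as a description among 12264 genes. For Clca1 they were Aamdc (r = 0.96) and Tm7sf3 (0.94), both above its r of 0.92 with Fcgbpl1. For Fcgbpl1 Mep1a, a brush border metalloprotease, came first (0.93). For Zg16 they were Ms4a8 (0.89) and Tcim (0.88), and for Klf4 Pramef5 (0.98) and Stim1, a calcium sensor of the endoplasmic reticulum (0.93). For Agr2 they were Aatf (0.95) and Dhx15, an RNA helicase (0.93), and for Spdef Tm2d3 (0.85) and Etv5, an ETS factor (0.85).

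Other mucus and goblet cell genes were counted from a list without the members, and not all genes on it are specific to goblet cells. Of 36 listed mucus and goblet cell genes 32 were tested, 26 with a higher and 6 with a lower mean at high calcium (54.2% of all probes were higher). At an unadjusted p under 0.05, 10 were higher and 1 lower (4.43% and 5.17% of all probes), and 0 passed limma's adjusted p; their median difference was 0.09 against 0.01 over all probes. Muc2, which encodes the gel-forming mucin of colonic mucus, differed by 0.27 ± 0.07 (adjusted p = 0.168 by limma), and Tff3, the goblet cell trefoil peptide, by 0.29 ± 0.09 (adjusted p = 0.215). Tpsg1, a tryptase, differed by 0.21 ± 0.05 and Bcas1 by 0.22 ± 0.08 (adjusted p = 0.103 and 0.287 by limma).

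The mean of this list per rat ran from -0.05 to 0.20 in high calcium rats and from -0.14 to 0.04 in low calcium rats. After diet means were taken out it followed Fcgbpl1 (r = 0.71, rho = 0.71, adjusted permutation p = 0.032 and 0.033 over 78 relations). That r was 0.90 within high and 0.38 within low calcium rats. The list mean did not pass with Clca1 (r = 0.46, adjusted permutation p = 0.18), Zg16 (0.28, adjusted p = 0.41), Klf4 (0.39, adjusted p = 0.26) or Spdef (-0.21, adjusted p = 0.52). With Clca1 r was 0.71 within high and 0.07 within low calcium rats. Agr2 ran opposite to the list mean at r = -0.67 and rho = -0.53, of which r passed and rho did not (adjusted permutation p = 0.042 and 0.117). Its r was -0.97 within high and -0.33 within low calcium rats. These differences between diets were not tested. Muc2 itself gave r of 0.41 with Clca1, 0.28 with Zg16, 0.54 with Fcgbpl1 and 0.50 with Klf4. Their adjusted permutation p-values were 0.27, 0.42, 0.11 and 0.11. Spdef gave r of 0.02 with Muc2 and -0.08 with Tff3 (adjusted permutation p = 0.95 and 0.84). Tff3 passed with Klf4 at r = 0.68 and rho = 0.73 (adjusted permutation p = 0.032 and 0.029). With Clca1, Zg16 and Fcgbpl1 it gave r of 0.61, 0.61 and 0.65 and did not pass (adjusted permutation p = 0.062, 0.059 and 0.056). Agr2 ran opposite to Tff3 at r = -0.67 and rho = -0.64, of which r passed and rho did not (adjusted permutation p = 0.038 and 0.068), and gave r = -0.46 with Muc2 (adjusted permutation p = 0.16).

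Of the list means, that of 17 absorptive colonocyte markers had the highest r with Clca1, Zg16, Fcgbpl1 and Klf4. This relation was singled out after the values were seen. It gave r = 0.91 and rho = 0.87 with Clca1, 0.84 and 0.89 with Zg16, 0.89 and 0.88 with Fcgbpl1, and 0.74 and 0.70 with Klf4. Adjusted permutation p-values over the 78 relations ran from 0.00078 to 0.033 for these 4 genes. Without the farthest 2 rats r was 0.84, 0.86, 0.85 and 0.61 in the same order. Agr2 gave r = -0.61 (adjusted permutation p = 0.060) and Spdef -0.03 (0.95). Agr2 was closer to general epithelial markers, at r = -0.76, and Spdef to enteroendocrine markers, at r = 0.63 (adjusted permutation p = 0.020 and 0.056). In bulk tissue, fewer cells of a type and less RNA per cell cannot be told apart.

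Of these absorptive markers 15 had a higher and 2 a lower mean at high calcium (54.2% of all probes were higher). At an unadjusted p under 0.05, 0 were higher and 1 lower (4.43% and 5.17% of all probes), and 16 were above background on every array. The guanylin genes had differences of opposite sign, with Guca2b at -0.42 ± 0.16 and Guca2a at 0.31 ± 0.18, while Cdhr5, a brush border cadherin, differed by 0.21 ± 0.12 and Cyp2s1 by 0.09 ± 0.05 (adjusted p = 0.382, 0.592, 0.597 and 0.615 by limma). Their mean ran from -0.39 to 0.44 in high calcium rats and from -0.40 to 0.25 in low calcium rats, and its diet means of 0.06 ± 0.25 and -0.06 ± 0.22 (SD, n = 8 and 9) differed by less than the SD within a diet. With that mean as a covariate, chosen after the values were seen, the difference for Fcgbpl1 fell from 0.53 ± 0.14 to 0.38 ± 0.07. It passed limma's adjusted p (0.046), as did 25 of 27101 probes in that fit. The covariate was picked for its high r with these genes, so this pass is no independent support for a difference. With the same covariate the difference was 0.26 ± 0.09 for Clca1 (adjusted p = 0.374), 0.12 ± 0.08 for Zg16 (0.829) and 0.11 ± 0.08 for Klf4 (0.863), all by limma.

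**Figure D5:**
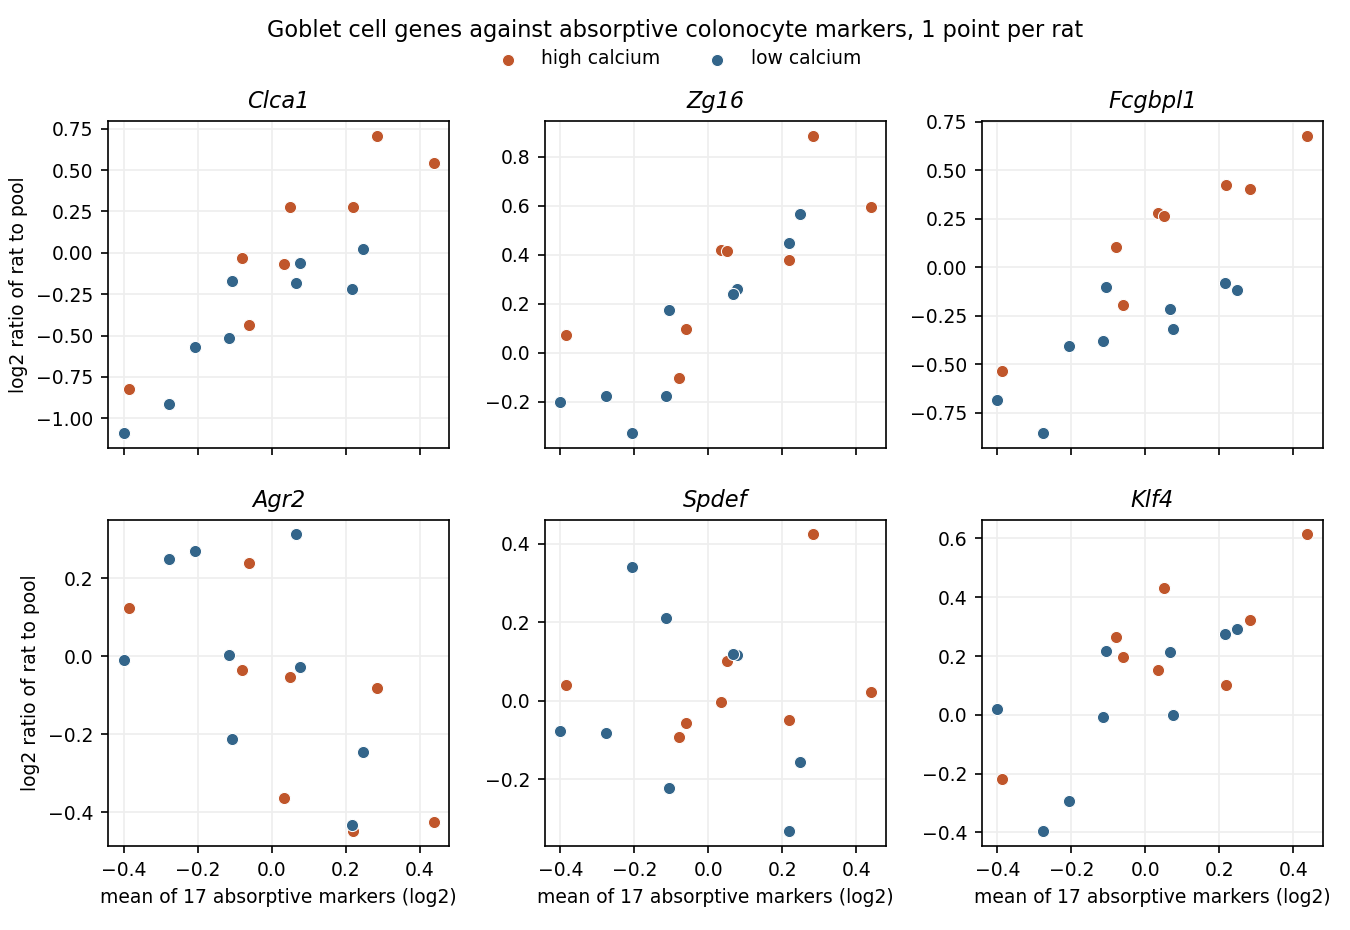
Log2 ratio to the pool of 6 genes (vertical axes) against the mean of 17 absorptive colonocyte markers per rat (horizontal axes, log2, each marker centred on its mean), with high and low calcium rats in separate colours. Clca1, Zg16, Fcgbpl1 and Klf4 climb with the markers, and most high calcium rats lie above low calcium rats of like marker level for Fcgbpl1.

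Fibroblast markers had lower means at high calcium. All 8 tested had a lower mean at high calcium at an unadjusted p under 0.05 (5.17% of all probes), 0 passed limma's adjusted p, and their mean ran from -0.79 to 0.23 in high calcium rats and from -0.09 to 0.50 in low calcium rats. Pdgfrb, a growth factor receptor of stromal cells, differed by -0.46 ± 0.10, and the matrix genes Lum by -0.69 ± 0.15, Col1a1 by -0.52 ± 0.11 and Dcn by -1.02 ± 0.22 (adjusted p = 0.086, 0.086, 0.086 and 0.091 by limma). High calcium rat 3, the lowest of its diet for Clca1, Fcgbpl1 and Klf4, had the highest fibroblast mean of its diet (0.23) and its lowest absorptive mean (-0.39). Within diets the fibroblast mean ran opposite to Klf4 and Fcgbpl1, at r = -0.72 and -0.68 (adjusted permutation p = 0.029 and 0.042). With rho of -0.64 and -0.50 neither passed (0.067 and 0.148), and without the farthest 2 rats r was -0.55 and -0.44. With Clca1 r was -0.54 and did not pass (adjusted permutation p = 0.10). The part of the stromal markers in the gene differences was not tested.

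Regulators that act before goblet cells form were counted in the same way. Of 34 listed secretory lineage and Notch genes 31 were tested, 25 with a higher and 6 with a lower mean at high calcium. Over all tested probes 54.2% had a higher mean. At an unadjusted p under 0.05, 1 was higher and 2 lower, or 9.68% of the list against 9.6% of all probes, and 0 passed limma's adjusted p. The share of the list under that p is that of all probes within 1 gene. The smallest p-values belonged to Gata6, at 0.18 ± 0.06, Mfng, a fringe enzyme that modifies Notch, at -0.21 ± 0.06, and Rbpj, the DNA-binding partner of Notch, at -0.16 ± 0.06 (adjusted p = 0.287, 0.227 and 0.345 by limma). Gfi1, which acts below Atoh1 in the mouse, differed by 0.12 ± 0.06 (adjusted p = 0.526).

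Type 2 and interleukin-22 signals are known to drive Clca1 and Retnlb in the mouse. Of 12 tested genes of those pathways 7 had a higher and 5 a lower mean at high calcium (54.2% of all probes were higher). At an unadjusted p under 0.05, 0 were higher and 3 lower (4.43% and 5.17% of all probes), and 0 passed limma's adjusted p. Il1rl1, the interleukin-33 receptor, differed by -0.46 ± 0.10 (adjusted p = 0.086 by limma). Ccl11, the eosinophil chemokine, differed by -0.41 ± 0.14, Il22ra2, a decoy receptor for interleukin-22, by -0.38 ± 0.18 and Stat3 by 0.10 ± 0.05 (adjusted p = 0.301, 0.502 and 0.576). The mean of these genes gave r of -0.03 with Clca1 and 0.27 with Zg16 within diets (adjusted permutation p = 0.95 and 0.44).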

How the data were processed

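The deposited scanner files hold spot intensities of both dyes and other columns of flags. Per the file headers the scanner software was Feature Extraction 9.5.1.1 (Agilent Feature Extraction 9.5 per the submitters' processing notes). Log2 values of the deposited series matrix, for which the sources used here give no recipe, served as an alternative (r = 0.98 to the scanner log ratios) and 0 of its columns were left unused. Local background was removed with normexp (offset 50) and arrays were normalised by loess in limma 3.58.1 (R 4.3.3), after which a change shared by most genes cannot be seen. Between 0 and 37 spots per array, most of them on low calcium rats 11 and 16, had a local background over 2 times the array's median; they distorted normexp, so their background was set to that median and they were left out. A probe was tested where 8 or more arrays had it well above background in Cy5 (27101 of 41012). Diets from the sample titles were compared with lmFit and eBayes without covariates, two-sided, with Benjamini-Hochberg adjustment over all probes. The labels give 1 sample per rat. Array names were replaced by current symbols from RefSeq (GRCr8) for these probes: 10726 by accession, 2283 by gene ID, 5388 by symbol, 3569 by synonym, and 19046 kept the array's name. The fit was tested on simulated data. Members and gene lists were chosen with earlier results of these data known. Named beside the members were up to 4 genes per list with the smallest unadjusted p, and the 2 genes most like each member, leaving out uncharacterised names; 1 gene under this rule is not reported here. Alternatives changed background, normalisation, filter, variance model, slide, covariates and single rats.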

Additional observations from a re-analysis of the deposited data

Results flagged for a closer look

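Spdef in high calcium rat 9 lay at 0.4241 on the log2 scale, far above the next of the 8 high calcium rats, with a gap of 0.626 of the group's range against Dixon's critical value of 0.526. It was the 1 rat found among 12 groups of rats tested (6 genes in each diet), where chance alone flags about 1 in 20 groups. The same rat was also the highest of its diet for Clca1 (0.71) and Zg16 (0.89).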

How the results depend on the processing

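Differences of the 6 genes kept their direction in all of 216 recomputed values, and 214 stayed on the same side of the adjusted p of 0.05. The exceptions were Fcgbpl1 without high calcium rat 3 (0.63) and with absorptive markers as a covariate (0.384). Some of the 216 differences could not move. Other filters, trend and robust eBayes and the mean of a gene's probes (1 per gene) returned the main difference. Slide as a fixed block returned the difference without low calcium rat 1, which was alone on its slide. The 216 values are thus not as many separate checks of direction. Leaving out each rat in turn gave 0.37 to 0.59 for Clca1, 0.18 to 0.32 for Zg16, 0.46 to 0.63 for Fcgbpl1, -0.17 to -0.07 for Agr2, 0.0039 to 0.10 for Spdef and 0.14 to 0.26 for Klf4; adjusted p was 0.101 to 0.776 for Clca1 and 0.015 to 0.365 for Fcgbpl1. Over all 35 settings of the fit Clca1 ran from 0.26 to 0.66 and Fcgbpl1 from 0.38 to 0.63. Keeping the spots with a bright background gave 0.45 for Clca1 and 0.52 for Fcgbpl1. The number of all probes past the adjusted p, 0 as reported, was 2 with the scanner's processed signals, 87 with array weights, 22 with smooth muscle markers and 25 with absorptive markers as a covariate, 179 without the slide of rats 3 and 16, and 0 to 273 with 1 rat left out. Over all gene lists the count, 0 as reported, was 6 with array weights, 2 with the smooth muscle and 1 with the absorptive covariate, 9 without that slide, and 0 to 9 with 1 rat left out; the cause was not tested. The 8 correlated pairs became 10 with diets pooled, 9 without that slide and 9 with slide means removed. No paired analysis was possible because the diets share no replicate number. The settings with an absorptive covariate, without that slide, with slide means removed and with bright-background spots kept were chosen after seeing the data.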

Other observations

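The remaining marker lists were counted at an unadjusted p under 0.05, which 4.43% of all tested probes passed as higher and 5.17% as lower, and 0 of their genes passed limma's adjusted p. Of 10 leukocyte markers 0 were higher and 3 lower at high calcium: Itgam, the integrin chain of myeloid cells, at -0.30 ± 0.08, Cd68, a macrophage protein, at -0.33 ± 0.09, and S100a8, a calprotectin chain, at -0.60 ± 0.23, while S100a9 was at -0.37 ± 0.21. Of 9 enteroendocrine markers 2 were higher and 0 lower, the hormone genes Pyy, at 0.17 ± 0.06, and Sst, at 0.31 ± 0.11; Chga was at 0.18 ± 0.09 and Gcg at 0.11 ± 0.07. Of 6 tuft cell markers Avil was at 0.09 ± 0.04, Trpm5 at 0.10 ± 0.05, Pou2f3 at 0.12 ± 0.06 and Gfi1b at 0.04 ± 0.04, with Avil counted as higher. Of 8 smooth muscle markers Smtn was counted as higher (0.14 ± 0.05) and Tagln as lower (-0.36 ± 0.15), beside Myl9 at -0.27 ± 0.15 and Des at -0.17 ± 0.12. None of 11 general epithelial markers was counted (Cldn7 at 0.13 ± 0.08, Cdh1 at 0.10 ± 0.07, Cdx2 at 0.15 ± 0.11 and Cldn4 at -0.15 ± 0.12). None of 10 stem and cycling crypt cell markers was counted either (Lgr5 at 0.10 ± 0.07, Olfm4 at 0.21 ± 0.18, Top2a at 0.08 ± 0.09 and Pcna at -0.07 ± 0.09).

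After diet means were taken out, Agr2 followed the mean of the stem and cycling markers at r = 0.66 and rho = 0.62 (adjusted permutation p = 0.042 and 0.069). That r was 0.18 within high and 0.95 within low calcium rats, and the difference between diets was not tested. Agr2 ran opposite to the general epithelial mean at r = -0.76 and rho = -0.74 (adjusted permutation p = 0.020 and 0.028), with r of -0.57 within high and -0.89 within low calcium rats. Without rats 14 and 15 r was 0.69 with the first and -0.84 with the second.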
